A study of Mus musculus with 8 samples.

Results

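Bone morphogenetic proteins (BMPs) are secreted dimers that bind type I and type II receptor kinases, which phosphorylate receptor SMADs that enter the nucleus with SMAD4. Secreted antagonists hold the ligands away from their receptors, and Id genes are among the best known responders. In the embryonic pancreas BMP signals pass between the epithelium and the mesenchyme around it, and related activins and their antagonists act in the same tissue. The 9 genes described here were 5 secreted antagonists (Cer1, Nog, Grem1, Chrd and Fst) and 4 ligands (Bmp2, Bmp4, Bmp5 and Bmp7). They were taken by name from the array, and all 9 had at least 1 of 12 probes, among 19390 genes or unnamed probes tested. The genes had been selected on their processed signals in these same 4 wild-type and 4 mutant arrays, so their levels and differences are given as a description, without a test.

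RNA came from mouse pancreatic epithelia dissected at e15.5 (embryonic day). Mutant embryos were Sox9 fl/fl and carried Rosa26-CreER, and wild-type littermates carried Rosa26-CreER alone. Tamoxifen was given at e12.5 to the dams of embryos of both genotypes, at 6 mg per 40 g of body weight. There were 4 one-colour arrays of each genotype, each from a pool of 4 pancreata. The stock behind the floxed allele mixed FVB/N, C57Bl/6J and CD1, while Rosa26-CreER was on C57Bl/6J. Rosa26 is active in nearly all cells, so recombination need not have been limited to the epithelium, and it was not measured by cell type here. A pool gives no value for a single embryo.

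Levels are log2 of the scanner's processed signal minus the 75th percentile of the array, and a difference is mutant minus wild type on that scale. Sox9, the deleted gene, was lower on every mutant array. Its probe in the fit read 1.68 to 1.82 in wild type and 0.34 to 0.52 in mutant, which left 40.2% of the wild-type signal (limma adjusted p = 8.145e-04). Another probe of Sox9 left 17.7%, and the dimmest of its 3 probes read 0.65 higher in mutant, and 0.24 higher without mutant replicate 2. All wild-type arrays were on 1 slide and in 1 scan, and all mutant arrays on another, so slide and genotype cannot be told apart. The array of mutant replicate 2 stood apart. Its median processed signal was 756 units against 219 to 272 on the other 7 arrays, and its negative control probes had a median of 20.4 units against 4.43 to 6.47. Its median correlation with the other mutant arrays, across features, was 0.923, against at least 0.9935 within genotype for the others. Of the 9 genes, 6 read higher there than on any other mutant array, so each is given with and without it.

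The genome windows before the starts of Cer1 and Grem1 are shown because these were the members whose 4 mutant values all lay below the wild-type values. Both windows come from RefSeq, assembly GRCm38.p6, and hold the 250 bases before the gene's start, written 5′ to 3′ on the gene's strand. The window of Cer1 is chr4:82885152-82885401, minus strand, with E-boxes (CANNTG, the core bound by basic helix-loop-helix factors such as NEUROG3) in capitals, and that of Grem1 is chr2:113758649-113758898, minus strand, with a GC-rich SMAD motif (GGCGCC) in capitals.
Cer1: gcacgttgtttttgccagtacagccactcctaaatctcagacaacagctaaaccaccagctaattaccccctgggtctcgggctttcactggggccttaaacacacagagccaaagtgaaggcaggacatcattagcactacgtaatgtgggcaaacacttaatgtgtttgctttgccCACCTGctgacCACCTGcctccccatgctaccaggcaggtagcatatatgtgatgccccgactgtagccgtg
Grem1: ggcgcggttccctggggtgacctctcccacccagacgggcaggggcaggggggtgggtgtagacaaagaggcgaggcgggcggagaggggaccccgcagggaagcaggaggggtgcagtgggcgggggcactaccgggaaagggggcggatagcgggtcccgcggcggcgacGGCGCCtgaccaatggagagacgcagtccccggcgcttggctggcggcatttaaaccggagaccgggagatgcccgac

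The Cer1 window held 2 E-boxes of identical letters, between 55 and 72 bases before the start. An E-box was present in 66.2% of 32851 RefSeq windows of this length, so its presence is common. The Grem1 window held no E-box and 1 GGCGCC, at 72 to 78 bases before the start, a motif in 9.59% of windows. Windows of 5 members were matched, and those of Nog, Fst, Bmp2 and Bmp7 are not shown. The Chrd window held 1 GGCGCC, the Bmp4 window 3 E-boxes, and the Bmp5 window neither. The SOX-type motifs AACAAT and AACAAAG, searched on both strands like the others, were in none of the 5 windows and in 9.42% and 5.03% of all windows. The 2 SOX-type motifs share their first 5 letters, and a match is a description of sequence only.

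Of the 9 genes, Cer1 and Grem1 were lower in all 4 mutant pools than in any wild-type pool, Bmp2 was higher in all 4, and the values of the other 6 overlapped between genotypes. Across all features the groups did not overlap for 25.5%, with the mutant values wholly below the wild-type values for 14.1% and wholly above for 11.4%. In the fit over all features, Cer1 was called lower and no member was called higher, where limma called 3.24% of features lower and 2.22% higher at an adjusted p under 0.05. Without mutant replicate 2, Cer1 was called lower and Bmp2 higher, where 10.1% and 7.22% of features were called in those directions. Since these values were known when the genes were chosen, nothing is read from these counts. The median difference of the 9 genes was 0.06, and −0.18 without mutant replicate 2, against 0.01 and −0.02 over all features.

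**Figure D1:**
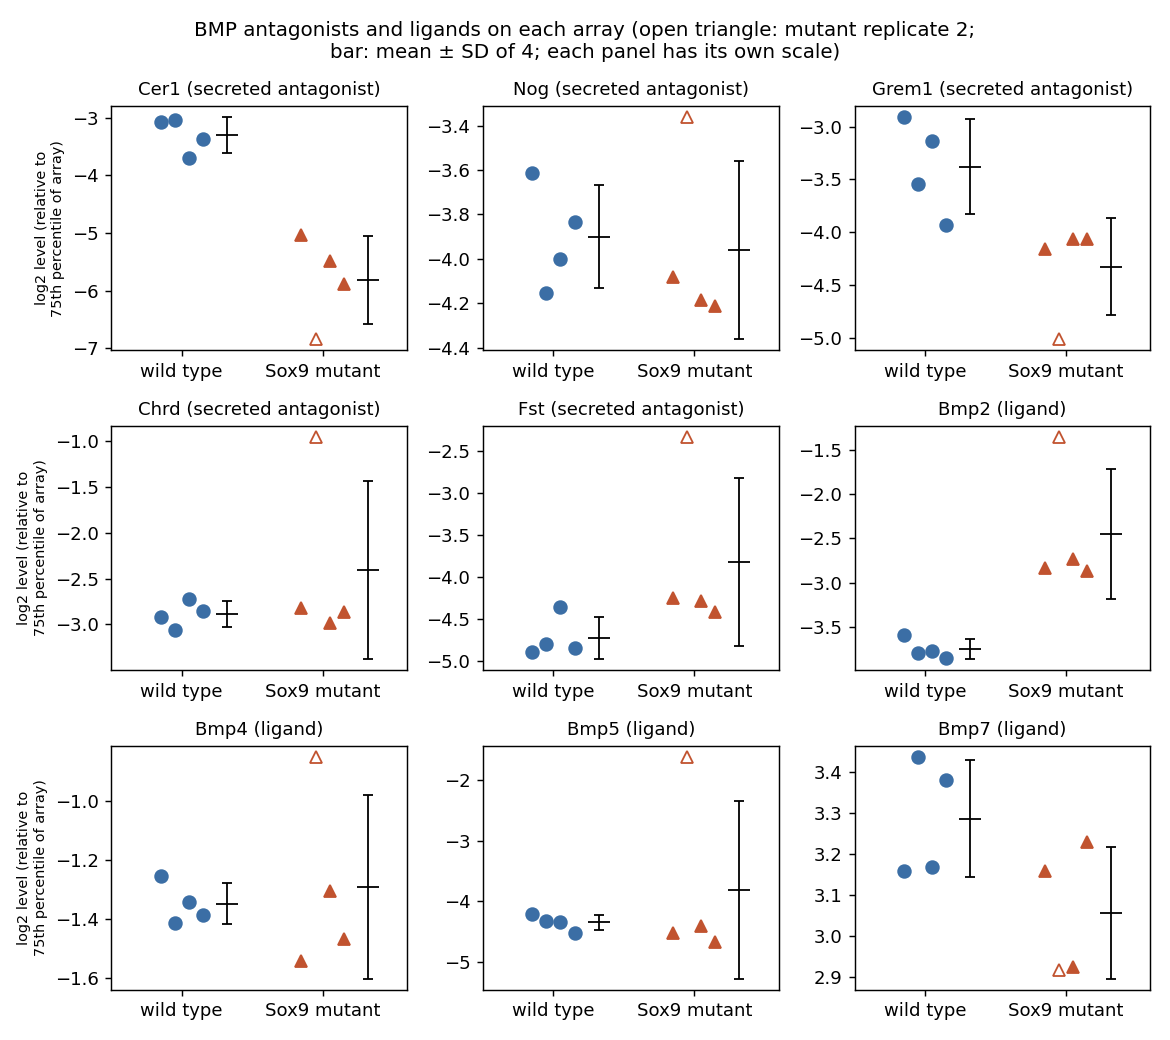
Log2 level of each of the 9 genes on every array, relative to the array's 75th percentile, in wild type and Sox9 mutant, with the mean ± SD of 4 as a bar and mutant replicate 2 as an open triangle; each panel has its own scale. Cer1 lies between −3.70 and −3.04 in wild type and between −6.84 and −5.04 in mutant, where the triangle at −6.84 is not well above background, and the triangle is the highest mutant point for 6 genes.

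Cer1 encodes Cerberus, a secreted cysteine knot protein that binds BMPs and Nodal and is best known as a marker of anterior visceral and definitive endoderm. Its 1 probe, A_51_P448167, lies at chr4:82353058-82353117 on assembly mm8 (exon and UTR annotation of that build was not used here). In wild-type pools 1 to 4 its level was −3.08, −3.04, −3.70 and −3.37. In mutant pools 1 to 4 it was −5.04, −6.84, −5.49 and −5.89. The highest mutant pool was below the lowest wild-type pool. The value on mutant replicate 2 was not well above background and has no place in the order of the mutant pools, but its bound of −4.77 was also below every wild-type pool. The mean was −3.30 ± 0.31 (SD, n = 4) in wild type and −5.82 ± 0.77 (SD, n = 4) in mutant, a difference of −2.52 ± 0.41 (SE), or 5.72-fold lower. Without mutant replicate 2 the mutant mean was −5.47 ± 0.42 (SD, n = 3) and the difference −2.17 ± 0.29 (SE), or 4.51-fold lower.

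The Cer1 signal was dim but measurable in most pools. The scanner software called it well above background on all 4 wild-type arrays and on 3 mutant arrays. Its processed signal was 151 to 264 units in wild type and 73.2, 48.1 and 36.6 units in mutant pools 1, 3 and 4. On those 3 mutant arrays the lowest signal called well above background was 22.6 to 26.0 units. On mutant replicate 2 Cer1 read 22.2 units, below the 93.3 units that were the lowest called there, so that reading is not a measured level. With that array raised to this lowest called level the mutant mean was −5.30 and the difference −1.999, or 3.997-fold lower. With probes required above background on all 8 arrays Cer1 had no value. Its difference was below 0 under every alternative that kept it in the fit, and smallest at −1.72 under normexp and −1.33 in the series table. Limma called it lower in 6 of the 8 fits with 1 array left out. The call was lost under normexp, centring on the array median, quantile normalization and a replicate block.

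Grem1 encodes Gremlin 1, which binds BMP2, BMP4 and BMP7 and is typically made by mesenchymal cells. Its probe A_52_P481957 lies at chr2:113549909-113549968 (mm8). In wild-type pools 1 to 4 its level was −2.91, −3.54, −3.13 and −3.93. In mutant pools 1 to 4 it was −4.16, −5.01, −4.06 and −4.07. The groups did not overlap, although the gap between wild-type replicate 4 and the highest mutant pool was small beside the spread of the wild-type pools. The mean was −3.38 ± 0.45 (SD, n = 4) in wild type and −4.33 ± 0.46 (SD, n = 4) in mutant, a difference of −0.95 ± 0.32 (SE), or 1.93-fold lower. Without mutant replicate 2 the difference was −0.72 ± 0.23 (SE), or 1.65-fold lower. Grem1 too was not well above background on mutant replicate 2. With that array at the lowest level called there the difference was −0.89, or 1.85-fold lower. Under quantile normalization the difference was −1.76.

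Nog encodes Noggin, which binds BMP2 and BMP4 and blocks their receptor sites. Its probe A_51_P237040 lies at chr11:89117625-89117684 (mm8). Its level ran from −4.15 to −3.61 in wild type, and was −4.08, −3.36, −4.19 and −4.21 in mutant pools 1 to 4. Mutant replicate 2 was the highest of all 8 arrays, and the groups overlapped. The difference was −0.06 ± 0.23 (SE), and −0.26 ± 0.12 (SE) without that array, when the groups still overlapped. Under quantile normalization it was −0.93.

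Chrd encodes Chordin, a BMP2 and BMP4 antagonist that tolloid proteases cleave. Its probe A_51_P215975 aligns over chr16:20652519-20652691 (mm8), a span of 173 bases. Its level ran from −3.06 to −2.72 in wild type, and was −2.82, −0.95, −2.99 and −2.86 in mutant pools 1 to 4. The mutant pools other than replicate 2 fell inside the wild-type range. The difference was 0.48 ± 0.49 (SE) over all arrays and 0.00 ± 0.09 (SE) without mutant replicate 2, so that array alone carried it.

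Fst encodes Follistatin, which binds activins tightly and some BMPs more weakly. Its probe A_51_P381821 aligns over chr13:115575362-115576034 (mm8), a span of 673 bases. In wild-type pools 1 to 4 its level was −4.90, −4.80, −4.36 and −4.85. In mutant pools 1 to 4 it was −4.25, −2.34, −4.29 and −4.42. Only wild-type replicate 3 reached into the mutant range, lying above mutant replicate 4. The difference was 0.91 ± 0.51 (SE), or 1.87-fold higher, and 0.41 ± 0.13 (SE), or 1.33-fold higher, without mutant replicate 2. Under normexp background correction it was −0.02, so its direction turned with that correction.

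Bmp2 was the ligand with separated groups. It encodes a BMP that signals through BMPR1A and BMPR2, and its probe A_51_P185229 lies at chr2:133252686-133252745 (mm8). The probe was printed as 10 spots, whose SD within an array was 0.05 to 0.11 after 8 outlier spots were left out over the 8 arrays. In wild-type pools 1 to 4 its level was −3.59, −3.79, −3.77 and −3.84. In mutant pools 1 to 4 it was −2.83, −1.36, −2.74 and −2.87. The mutant pools 1, 3 and 4 lay close together above every wild-type pool, and mutant replicate 2 lay far above them. The mean was −3.75 ± 0.11 (SD, n = 4) in wild type and −2.45 ± 0.73 (SD, n = 4) in mutant, a difference of 1.30 ± 0.37 (SE), or 2.46-fold higher. Without mutant replicate 2 the mutant mean was −2.81 ± 0.07 (SD, n = 3) and the difference 0.94 ± 0.07 (SE), or 1.91-fold higher. The processed signal was 145 to 173 units in wild type and 295 to 339 units in those 3 mutant pools, against 996 units on mutant replicate 2. Under normexp background correction the difference was 0.50.

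Bmp4 encodes the closest relative of BMP2 and is a common mesenchymal and endodermal signal in the foregut. Its probe A_51_P383741, at chr14:45306004-45306063 (mm8), was also printed as 10 spots, with an SD of 0.04 to 0.08 within an array. Its level ran from −1.41 to −1.25 in wild type, and was −1.54, −0.85, −1.31 and −1.47 in mutant pools 1 to 4. The groups overlapped, with mutant replicate 2 again the highest array. The difference was 0.06 ± 0.16 (SE), and −0.09 ± 0.08 (SE) without that array.

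Bmp5 encodes a BMP of the group that also holds BMP6, BMP7 and BMP8. Its probe in the fit, A_51_P516637, lies at chr9:75684546-75684605 (mm8). Its level ran from −4.52 to −4.21 in wild type, and was −4.52, −1.62, −4.41 and −4.68 in mutant pools 1 to 4. The difference was 0.54 ± 0.74 (SE), and −0.19 ± 0.10 (SE) without mutant replicate 2. Its other 2 probes, A_52_P118356 and A_51_P353264, were well above background on mutant replicate 2 only and did not pass the filter. Their levels there were −1.42 and −3.00, against at most −7.03 and −8.30 on the other 7 arrays. All 3 probes thus read high on that array alone, by several log2 units.

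Bmp7 encodes a ligand of epithelial tissues such as the ureteric bud, and both of its probes passed the filter. Probe A_52_P278354 lies at chr2:172512641-172512700 (mm8) and read 3.16 to 3.44 in wild type and 3.16, 2.92, 2.92 and 3.23 in mutant pools 1 to 4. Its mean was 3.29 ± 0.14 (SD, n = 4) in wild type and 3.06 ± 0.16 (SD, n = 4) in mutant, a difference of −0.23 ± 0.11 (SE). Probe A_51_P492366, at chr2:172512720-172512779 (mm8) and printed as 10 spots, read 2.91 to 3.23 in wild type and 2.86, 2.54, 2.78 and 2.98 in mutant pools 1 to 4, a difference of −0.28 ± 0.11 (SE). Both probes overlapped between genotypes. Without mutant replicate 2 the differences were −0.18 ± 0.12 and −0.20 ± 0.09 (SE), so the probes gave nearly the same size and direction.

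**Figure D2:**
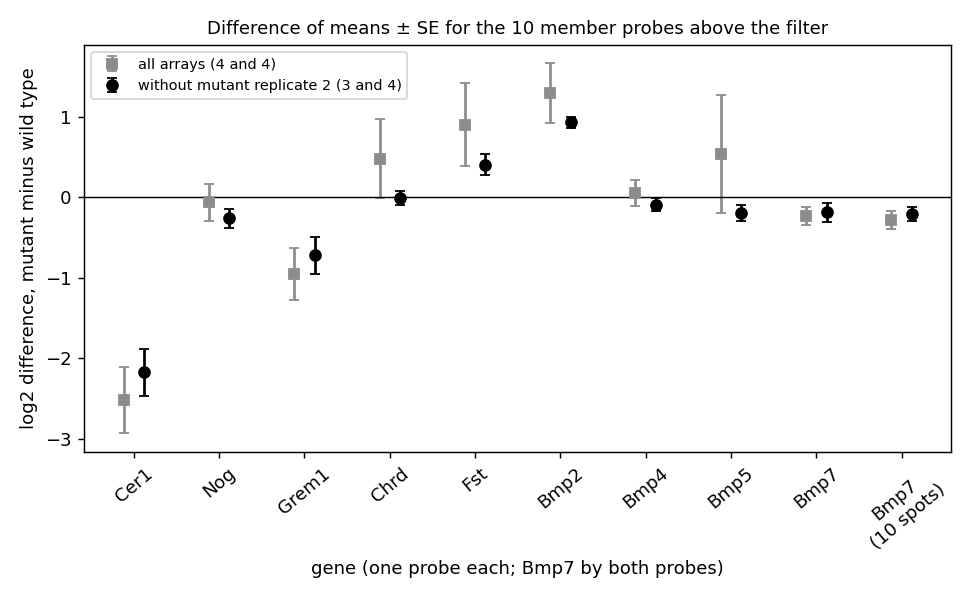
Log2 difference, mutant minus wild type, with its SE, for the 10 probes of the 9 genes that passed the filter, over all arrays (squares) and without mutant replicate 2 (circles). Cer1 stands at −2.52 and −2.17, Grem1 at −0.95 and −0.72, and Bmp2 at 1.30 and 0.94; for Chrd, Fst and Bmp5 the SE shrinks from at least 0.49 to at most 0.13 once that array is left out.

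Other genes of the BMP and TGF-beta families were taken from a list of 85 genes in 5 roles, of which 78 were tested. Of the 78, 7 rose and 1 fell (10.3%), beside 5.47% of all features, and the median difference was 0.03 against 0.01. Without mutant replicate 2, 10 rose and 5 fell (19.2%), beside 17.3% of all features. Leaving out any other array lowered this count, and also that of all features, which was 1060 over all arrays. The count was 4 without wild-type replicate 1 or wild-type replicate 3, where 359 and 371 of all features were called. It was 5 without wild-type replicate 2 or wild-type replicate 4, where 386 and 541 were called. It was also 5 without mutant replicate 1 or mutant replicate 3, where 447 and 488 were called. It was 6 without mutant replicate 4, where 484 were called.

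Among 22 other ligands 4 rose and none fell. Inhbb, which encodes the beta B chain of activin B and inhibin B, rose from −2.14 ± 0.20 to −0.76 ± 0.16 (SD, n = 4 each), a difference of 1.37 ± 0.12 (SE) or 2.59-fold (limma adjusted p = 0.003119). It passed the threshold in all 8 fits with 1 array left out. Gdf9, known from the oocyte, rose by 1.49 ± 0.30 (SE, adjusted p = 0.03659) but kept its call only when mutant replicate 2 was the array left out, at 1.23. Gdf10 rose by 0.47 ± 0.08 (SE, adjusted p = 0.02405) and kept its call in 2 of the 8 fits. Bmp8b rose by 0.68 ± 0.11 (SE, adjusted p = 0.01837), kept its call in 4 of the 8 fits and turned to −0.15 under normexp background correction and to −0.31 under quantile normalization. Bmp8a and Bmp8b are near-identical paralogs, so the value of Bmp8b is uncertain.

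Among 17 other antagonists and extracellular modulators 2 rose and none fell. Chrdl1, which encodes a chordin-like BMP binder, rose from −1.58 ± 0.21 to −0.66 ± 0.16 (SD, n = 4 each), a difference of 0.92 ± 0.13 (SE) or 1.89-fold (limma adjusted p = 0.01095), and passed in all 8 fits. Averaged over its probes above the filter, the difference was 1.98 (limma adjusted p = 0.0183), so its probes differed in size. Fstl3, a follistatin-like activin binder, rose by 0.40 ± 0.08 (SE, adjusted p = 0.0371) and kept its call in 2 of the 8 fits. Vwc2, a secreted BMP modulator, did not pass over all arrays (limma adjusted p = 0.3342) and fell by 2.17 without mutant replicate 2 (adjusted p = 0.003205).

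Of 17 receptors and co-receptors limma called none, where it called 5.47% of all features. An unadjusted p under 0.05 was found for 4 of the 17, beside 4888 of the 19390 features. The smallest p-values were those of Rgma, a BMP co-receptor, with a difference of −0.28 ± 0.07 (SE, adjusted p = 0.07005), and Acvr1b, an activin type I receptor, with −0.23 ± 0.07 (SE, adjusted p = 0.09093). Rgma passed without mutant replicate 2 (−0.23, adjusted p = 0.02956). The main BMP receptors Bmpr1a and Bmpr2 differed by −0.09 and 0.04.

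Of 13 SMADs and regulators 1 rose. Smad7, an inhibitory SMAD that TGF-beta and BMP signals induce, rose from −0.95 ± 0.07 to −0.49 ± 0.04 (SD, n = 4 each), a difference of 0.46 ± 0.06 (SE) or 1.38-fold (limma adjusted p = 0.008676), in all 8 fits. Smad6 differed by 0.08 and did not pass (limma adjusted p = 0.514). Of 9 response genes 1 fell. Id4, an inhibitor of basic helix-loop-helix factors, fell from 1.06 ± 0.09 to 0.50 ± 0.05 (SD, n = 4 each), a difference of −0.56 ± 0.07 (SE) or 1.48-fold (limma adjusted p = 0.006573), in all 8 fits. The other Id genes did not pass the test: Id1 differed by −0.10, Id2 by 0.00 and Id3 by −0.12. Inhbb, Chrdl1, Smad7 and Id4 kept their direction under every alternative but lost their call under normexp background correction and under centring on the array median. With the replicate number as a block the calls of Chrdl1, Smad7 and Id4 were lost as well, at adjusted p of 0.05223, 0.06929 and 0.06542, while Inhbb lost its call when a gene's probes were averaged (adjusted p = 0.06068) and Chrdl1 under quantile normalization (adjusted p = 0.08364).

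**Figure D3:**
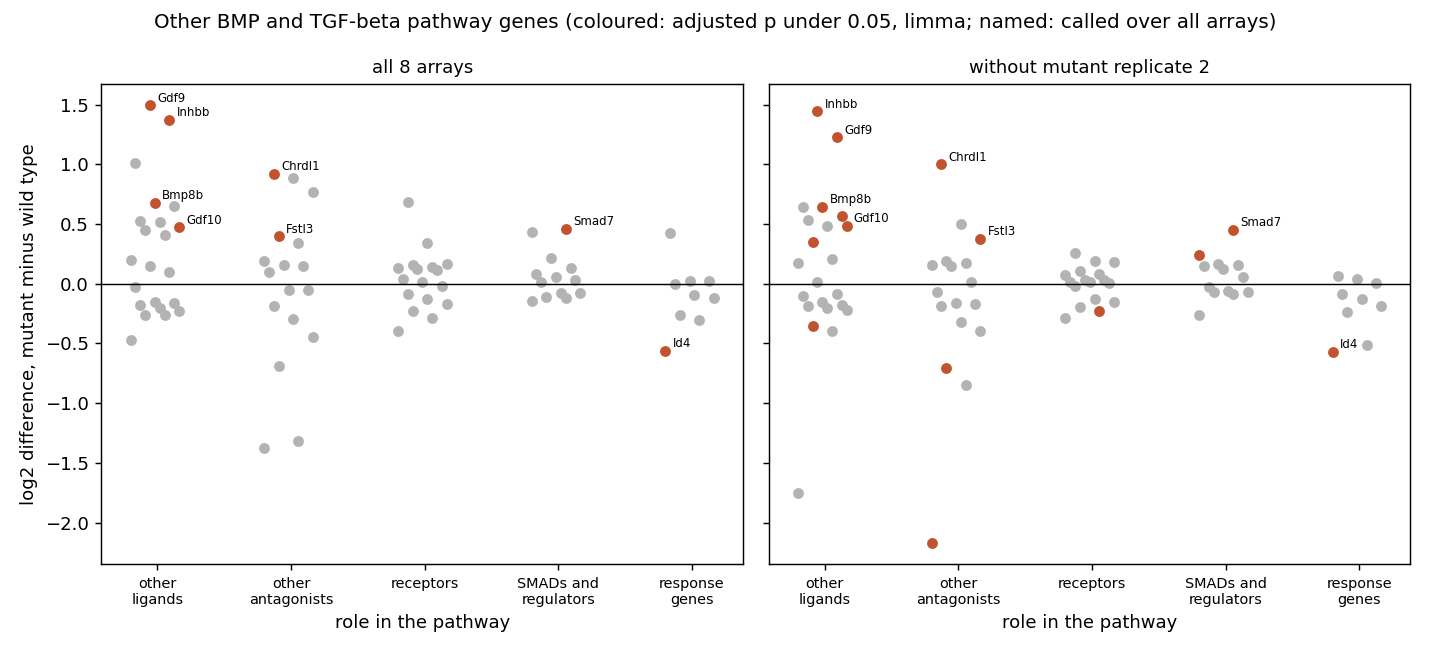
Log2 difference, mutant minus wild type, of the 78 other pathway genes by role, over all arrays and without mutant replicate 2; coloured points had a limma adjusted p under 0.05, and those called over all arrays are named. Over all arrays 7 points are called above 0, led by Gdf9 at 1.49 and Inhbb at 1.37, and Id4 is called below 0 at −0.56.

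Several cell types in the dissected tissue can make these ligands and antagonists, and in bulk RNA fewer cells of a type and less RNA per cell cannot be told apart. Mesenchymal genes were bright in tissue labelled as epithelium, with Col1a1 at 6.09 ± 0.13 in wild type and 6.01 ± 0.16 in mutant (SD, n = 4 each). The mean of 20 mesenchymal markers ran from 2.73 to 2.92 in wild type and from 2.75 to 2.91 in mutant, so the groups overlapped while Grem1 was lower. Of the 20, Barx1 and Bapx1 rose and none fell (10%), beside 5.47% of all features called. Without mutant replicate 2, 3 rose and 1 fell (20%), beside 17.3% of all features. Bapx1 rose in all 8 fits with 1 array left out and Barx1 in 1 of them. Col3a1 read 6.01 and 6.05 and Pdgfra 1.47 and 1.52. Some matrix genes of the list were lower, as Grem1 was, without passing the test over all arrays: Lum differed by −0.45 (adjusted p = 0.07828), with no overlap, Dcn by −0.38 (adjusted p = 0.2385) and Col1a2 by −0.29 (adjusted p = 0.1995). Lum was the gene that fell without mutant replicate 2 (−0.35, adjusted p = 0.03862). Twist1 went the other way, at 0.99 over all arrays with no overlap (limma adjusted p = 0.1994). Without mutant replicate 2 its difference was 0.53, and it was 1 of the 3 that rose (limma adjusted p = 0.008084). The mean of 13 endothelial markers ran from 1.47 to 1.63 and from 1.401 to 1.63, with Pecam1 at 0.35 and 0.43. Limma called none of them, and none had an unadjusted p under 0.05. Without mutant replicate 2, 1 rose (7.69%), beside 17.3% of all features called. The mean of 13 epithelial markers ran from 2.42 to 2.52 and from 2.44 to 2.67, and Cdh1 was at 3.45 in both genotypes. None was called, and 4 of the 13 had an unadjusted p under 0.05, beside 4888 of the 19390 features. Without mutant replicate 2, 3 rose (23.1%), beside 17.3% of all features called. The keratins Krt8, Krt18 and Krt19 rose without mutant replicate 2, by 0.32, 0.42 and 0.48 (limma adjusted p = 0.01254, 0.03006 and 0.006136); over all arrays they differed by 0.23, 0.32 and 0.36 and did not pass.

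Markers of endocrine precursors and of nerve were lower in mutant, as Cer1 and Grem1 were. The mean of 15 endocrine precursor markers ran from −0.13 to −0.01 in wild type and from −1.38 to −0.89 in mutant. Of the 15, 11 fell (73.3%), beside 3.24% of all features. Neurog3, the factor that starts the endocrine programme, fell from 0.96 ± 0.13 to −0.92 ± 0.29 (SD, n = 4 each; limma adjusted p = 0.002405). The mean of 12 nerve and Schwann cell markers ran from −1.37 to −0.83 and from −2.16 to −1.32, so that the groups overlapped at mutant replicate 2. Sox10 and S100b fell among them (16.7%), beside 3.24% of all features. Without mutant replicate 2, 4 of the 12 fell (33.3%), beside 10.1% of all features. Without mutant replicate 3, 4 of the 12 fell, where 309 of all features fell. Of 9 blood markers Hbb-y rose (11.1%), beside 2.22% of all features, and it kept its call in 3 of the 8 fits. The mean of the 8 blood markers with values on all arrays ran from −0.82 to −0.50 and from −0.65 to 0.12. The part of these cell types in the differences of Cer1, Grem1 and Bmp2 was not tested.

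**Figure D4:**
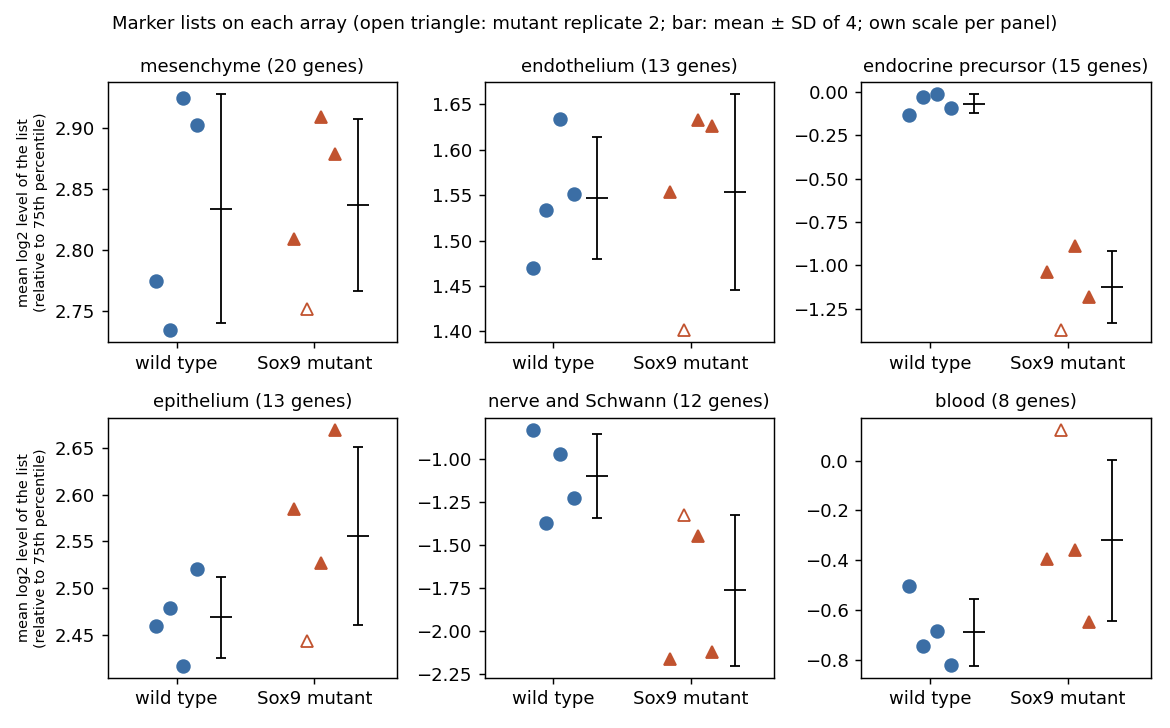
Mean log2 level of each marker list on every array, relative to the array's 75th percentile, with mean ± SD of 4 as a bar and mutant replicate 2 as an open triangle; each panel has its own scale. The endocrine precursor list has no overlap, at −0.07 ± 0.05 in wild type and −1.12 ± 0.21 in mutant, while the mesenchyme list is at 2.83 ± 0.09 and 2.84 ± 0.07.

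The features whose levels over the 8 arrays were most like those of Cer1 were sought among 18309 that were well above background on all wild-type arrays. Acsm3, an acyl-CoA synthetase, had a Pearson r of 0.993 with Cer1, and 0.988 without mutant replicate 2. The unnamed probe A_51_P478544 had 0.993 in both cases. Tmem63a, an ion channel gene, had 0.991 and 0.989, St13, a co-chaperone, 0.991 and 0.986, and Calr4, a calreticulin relative, 0.990 and 0.986. For comparison Neurog3 had an r of 0.913 with Cer1, and 0.970 without mutant replicate 2, and Sox9 had 0.946 and 0.968. Cer1 was not well above background on mutant replicate 2, and without that array these 5 features ranked 15, 2, 12, 21 and 19 by r with Cer1, in the order named, so most were not the nearest over the other 7 arrays. These are descriptions over arrays that share the split by genotype and slide, so a feature that is steadily lower on the mutant arrays tends to score high.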

How the data were processed

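Arrays of Agilent design 014868, from about 250 ng of RNA per pool, were read by Feature Extraction 9.5.3.1, per the file headers. The deposited processed signal is a linear intensity, background-subtracted and detrended within each array by that software and not normalized between arrays. The deposited table of the whole series, also an intensity, served as an alternative. Probe positions are the files' own, on mm8.

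Control and outlier spots (0.151%) were left out, spots of a probe averaged on the log2 scale, and each array's 75th percentile subtracted. Of 41174 probes, 29462 were well above background on at least 4 of 8 arrays. The probe with the highest mean stood for a gene, which gave 19390 features. Genotype was fitted with limma 3.58.1 in R 4.3.3 (data.table, version 1.17.8), two-sided, with Benjamini-Hochberg adjustment over all features and a threshold of 0.05. The fit was also run on simulated data, with independent noise of the wild-type spread on every array. Those data held no array like mutant replicate 2 and no slide effect, so that check does not cover either. The replicates are pools of embryos. The number of arrays limits the precision.

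The members and gene lists were chosen with earlier results of these data known. Named were Sox9, all members, defining marker genes and the 5 features most like Cer1. Per pathway role up to 4 called genes were named, or the 2 with the smallest p. Further genes were added after their values were seen: Vwc2, Bmpr1a, Bmpr2, Smad6, Id1 to Id3, Barx1, Bapx1, Twist1, Lum, Dcn, Col1a2, Krt8, Krt18, Krt19, Sox10, S100b and Hbb-y. The correlations of Neurog3 and Sox9 with Cer1 were also added then. Alternatives covered background correction, normalization, centring, filters, probe choice, array weights, the series table, a replicate block and leaving out each array.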

Additional observations from a re-analysis of the deposited data

Results flagged for a closer look

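Within a genotype of 4 arrays, the gap of the extreme array to its neighbour, as a share of the range, was set against Dixon's critical value for 4 samples, which chance passes in about 5% of groups. It was passed in 12 of 56 groups, and in 10 of these the extreme array was mutant replicate 2. That array was the highest for Nog (0.850), Chrd (0.918), Fst (0.921), Bmp2 (0.911) and Gdf9 (0.834) in mutant, and for Bmp5 by all 3 probes (A_51_P516637 at 0.914, A_52_P118356 at 0.873 and A_51_P353264 at 0.972). It was the lowest for Grem1 (0.895) and Chrdl1 (0.862) in mutant. The other groups were Chrdl1 in wild type (0.882), with wild-type replicate 4 highest, and Fstl3 in mutant (0.923), with mutant replicate 1 lowest.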

How the results depend on the processing

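The counts of called features depended on the processing, and the causes were not tested. Against 1060 features as reported, limma called 79 under normexp background correction, 56 with centring on the array median, 420 with no filter, 4694 with array weights and 2188 from the series table, and 359 to 3360 with 1 array left out. Of the 78 other pathway genes, 8 as reported, it called 0 under normexp and 0 with median centring. At an unadjusted p under 0.05 were 6 and 7 of the 78 there, beside 1694 and 1796 of the 19390 features. It called 5 under quantile normalization, where it called 860 of all features. With no filter it called 5, with array weights 26, and with 1 array left out 4 to 15. Of the 9 members, 1 as reported, it called 0 under normexp (1 at an unadjusted p under 0.05), 0 with median centring (3), 0 with probes required above background on all 8 arrays (1), where Cer1 drops out, 3 with array weights, and 0 to 2 with 1 array left out. With that filter on all 8 arrays, limma called 1207 of all features, and 4664 were at an unadjusted p under 0.05. Under quantile normalization it called 1 member higher and 0 lower, so Cer1 lost its call there. Without wild-type replicate 1 or wild-type replicate 2 it called 0 members. Median centring moved the median of all features to −0.38, and to −0.05 without mutant replicate 2.

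The Cer1 difference of −2.52 was −1.72 under normexp and −1.33 from the series table, whose values are not background-subtracted, and −2.78 to −2.17 with 1 array left out. Bmp8b reversed to −0.15 under normexp and −0.31 under quantile normalization. Of 17 alternatives, each array left out included, Bmp8b lost its call with its direction kept in 7, Gdf9 in 11, Gdf10 in 12 and Fstl3 in 12. Over all alternatives Grem1 ran from −1.76 to −0.72, Bmp2 from 0.50 to 1.44 and Bmp7 from −0.62 to −0.10, while Nog (−0.93 to 0.04), Chrd (0.00 to 0.68), Fst (−0.02 to 1.10), Bmp4 (−0.33 to 0.14) and Bmp5 (−0.20 to 0.83) crossed or reached 0. Bmp2 and Bmp4 had no value from the series table. Raising Cer1 and Grem1 to the lowest called level on mutant replicate 2 was chosen after seeing the data.

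Replicate numbers are shared between genotypes, but the deviations of same-numbered arrays correlated at 0.02, −0.02, 0.05 and 0.13, so the numbers were not taken to pair them. With the replicate number as a block, limma called 116 features, 1 of the 78 other pathway genes and 0 of the 9 members. At an unadjusted p under 0.05 were 22 of the 78 and 3 of the 9, beside 4368 of the 19390 features.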
